A study of Mus musculus with 2 samples.

Results

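Serpins are protease inhibitors that present an exposed loop as bait, are cut by the protease and then trap it in a covalent complex. This account follows 10 serpin genes of lymphocytes: Serpinb1a, Serpinb6a, Serpinb6b, Serpinb8, Serpinb9 and Serpinb9b of clade B, Serpina3f and Serpina3g of clade A, and the secreted inhibitors Serping1 and Serpine2. Members were taken by gene symbol, each probe set separately, from the array's platform annotation. They were proposed with earlier results of these data in view, so the log2 ratios between the 2 arrays count as values the genes were chosen by. Of the 10 genes, 7 were named by a probe set, which gave 10 of the 45101 probe sets on the array and 7 of 18193 named genes. Serpina3f, Serpina3g and Serpine2 were not analysed here, because the annotation used listed no probe set under those symbols.

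The array profiles came from splenic CD4+CD25hi regulatory T cells, or Treg cells, a CD4 lineage that holds immune responses in check, of mice 6 to 8 weeks old. The control pool was made from littermates labelled wild type, and the deficient pool from mice labelled miR-125a KO, which lack the microRNA miR-125a. Both pools were enriched for CD4 with magnets and then sorted on CD4 and CD25, and each holds equal amounts of RNA from several mice, read on 1 array. No drug or stimulus is named for either pool, and the labels do not limit the deletion to a cell type. Since each genotype is 1 pooled sample, the differences have no replicate, no test and no p-value, and fewer cells of a type cannot be told apart from less RNA per cell.

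Clade B serpins lack a classical secretion signal and act mostly in the cytosol and nucleus. Cytotoxic lymphocytes carry granzymes, serine proteases that enter target cells through perforin pores, and granzyme that leaks from granules can damage the lymphocyte itself. Serpinb9 inhibits granzyme B and shields killer cells and dendritic cells in this way. Other members act on granzyme A, granzyme M, neutrophil proteases or proprotein convertases, so the family covers several proteases with distinct specificities.

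The microRNA that is missing in the deficient mice is shown with its seed, bases 2 to 8, in capitals, since the seed is what pairs with target transcripts. Both mature arms are credited to RefSeq, build GRCm38.p6, at chr17:17830817-17830840 and chr17:17830855-17830876 on the plus strand. No target sites in the serpins were searched.
mmu-miR-125a-5p: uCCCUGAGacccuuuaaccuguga
mmu-miR-125a-3p: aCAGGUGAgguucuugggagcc

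The 250 bases before the annotated start are shown for 4 clade B members of chromosome 13, because they form related pairs, Serpinb6a with Serpinb6b and Serpinb9 with its neighbour Serpinb9b. They are RefSeq sequences of build GRCm38.p6, printed 5′ to 3′ on the strand of the gene. Serpinb6a lies on the minus strand at chr13:34002795-34003044, its more upstream start, and Serpinb6b at chr13:32965011-32965260, Serpinb9 at chr13:33004291-33004540 and Serpinb9b at chr13:33027164-33027413 lie on the plus strand. Capitals mark matches to 4 motifs searched on both strands.
Serpinb6a: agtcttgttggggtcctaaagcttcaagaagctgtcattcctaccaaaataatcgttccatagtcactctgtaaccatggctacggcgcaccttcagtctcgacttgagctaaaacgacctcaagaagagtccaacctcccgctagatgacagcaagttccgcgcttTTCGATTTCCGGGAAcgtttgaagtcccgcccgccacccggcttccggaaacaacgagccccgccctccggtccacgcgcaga
Serpinb6b: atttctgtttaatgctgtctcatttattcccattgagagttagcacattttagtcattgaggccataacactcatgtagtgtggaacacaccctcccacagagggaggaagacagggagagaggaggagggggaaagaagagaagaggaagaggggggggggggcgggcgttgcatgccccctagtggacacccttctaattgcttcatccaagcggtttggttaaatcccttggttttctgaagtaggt
Serpinb9: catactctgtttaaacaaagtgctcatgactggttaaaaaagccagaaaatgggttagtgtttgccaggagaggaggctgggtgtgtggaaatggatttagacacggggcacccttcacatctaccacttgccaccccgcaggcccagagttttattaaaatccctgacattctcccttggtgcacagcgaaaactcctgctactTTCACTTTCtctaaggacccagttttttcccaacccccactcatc
Serpinb9b: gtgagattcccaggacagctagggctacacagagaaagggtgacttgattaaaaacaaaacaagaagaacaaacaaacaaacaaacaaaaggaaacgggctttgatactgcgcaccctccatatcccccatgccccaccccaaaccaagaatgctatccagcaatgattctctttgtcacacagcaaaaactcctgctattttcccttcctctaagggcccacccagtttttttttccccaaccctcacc

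The motifs, with N for any base, were AP-1 (TGANTCA), STAT (TTCNNNGAA), NF-kappaB (GGGNNTTTC) and the core of the interferon response element ISRE (GAAANNGAA). The share of all 32851 RefSeq windows of 250 bases that held each was 6.75% for AP-1, 7.02% for STAT, 3.72% for NF-kappaB and 7.13% for ISRE. Serpinb9 held an ISRE match, TTCACTTTC, and the Serpinb9b window held no match to any of the 4. In the best local alignment, with gaps not counted, these neighbouring paralogues shared 118 of 150 aligned bases, or 78.7%. The windows of Serpinb6a and Serpinb6b aligned over only 8 bases, fewer than the 25 of Serpinb9 with Serpinb6a. The Serpinb6a window held an ISRE match, TTCGATTTC, that overlaps a STAT match, TTCCGGGAA, and Serpinb6b held no match. The second annotated start of Serpinb6a held none either. These are matches of letters and not measured binding sites. The motifs were kept after matches in the serpin promoters had been seen, so the shares do not show whether a match is unusual. AP-1 matched in Serpinb8 and NF-kappaB in Serpina3g, whose windows are not shown.

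The signal of a probe set is a linear MAS5 value, in units that put the trimmed mean of each array at 500.0. For the log2 ratio a pseudocount of 16.3 was added to both signals and the deficient pool divided by the wild-type pool, so folds on that scale understate the change of dim probe sets. Median signals of the wild-type and deficient arrays were 64.1 and 62.4. Probe sets with a mean signal of at least 62.3 were counted, and a difference of at least 2-fold was called. Of the 10 member probe sets, 6 passed this minimum, covering Serpinb1a, Serpinb6a, Serpinb6b and Serpinb9. The other 4, of Serpinb9b, Serpinb8 and Serping1, lay below it. As a measure of error, the probe-set SD is the spread of the log2 ratio between probe sets of a gene among genes of like signal, and it leaves out variation between mice.

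Among the 6 member probe sets past the minimum, 2 were lower by 2-fold or more in the deficient pool, 0 were higher by as much, and 4 lay between. Of all 19248 probe sets past the minimum that name 1 gene, 1.39% reached this size downward, 1.04% upward and 2.43% in either direction. Both of the lower probe sets measure Serpinb1a, so the count stands for 1 gene. The members' median log2 ratio was -0.05, beside -0.02 over all probe sets past the minimum. Their ratios ran from -2.01 to 0.72, with 3 below 0 and 3 above. By gene, Serpinb1a and Serpinb6a were lower and Serpinb6b and Serpinb9 higher, so these 4 genes did not differ in a common direction. These ratios belong to the contrast from which the genes were proposed, and the counts describe the 2 arrays.

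**Figure D1:**
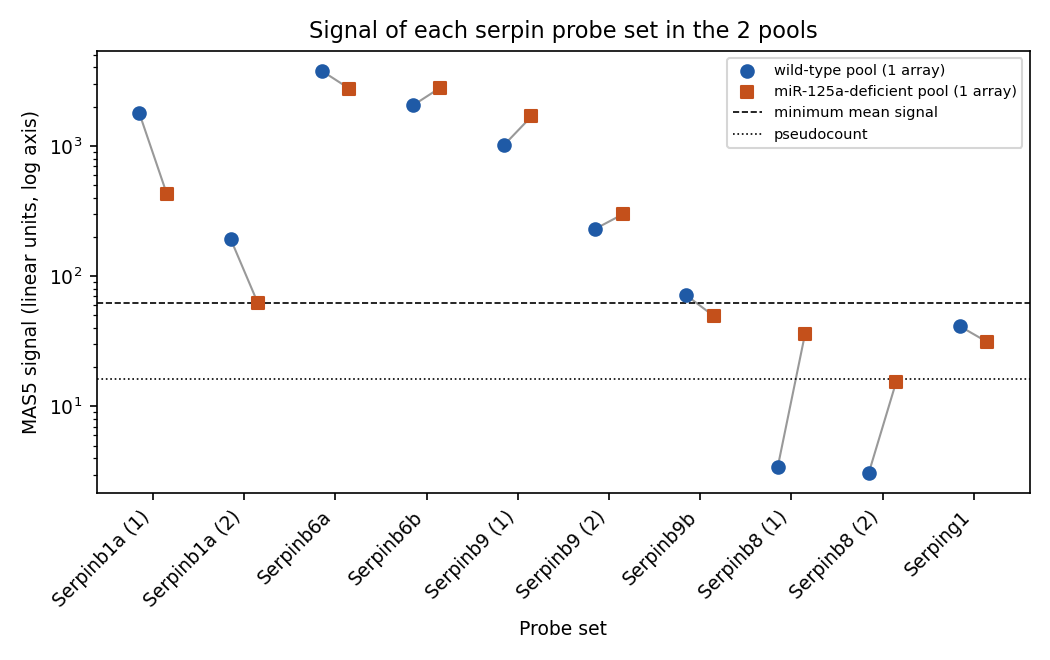
MAS5 signal (log axis) of each of the 10 serpin probe sets in the wild-type pool (circles) and the miR-125a-deficient pool (squares), with genes that have 2 probe sets numbered from the brighter. Each point is 1 array; Serpinb1a runs from 1773 down to 429, Serpinb9 from 1017 up to 1685, and the Serpinb8 and Serping1 probe sets lie below the dashed minimum of 62.3 in both pools.

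Serpinb1a, the mouse counterpart of the human monocyte and neutrophil elastase inhibitor, acts on neutrophil elastase, proteinase 3 and cathepsin G. Its brighter probe set read 1773 in wild-type and 429 in deficient cells. Its dimmer probe set read 193 and 62.0. Both probe sets were thus higher in the wild-type pool. The log2 ratio was -2.01 (probe-set SD 0.23) for the brighter, a 4.02-fold difference, and -1.42 (probe-set SD 0.38) for the dimmer, a 2.68-fold difference.

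Only 15 of the 19248 probe sets past the minimum had a lower ratio than the brighter Serpinb1a probe set, and 60 had a lower ratio than the dimmer. The 2 probe sets differed from each other by 0.58 on the log2 scale, and 9.57% of 5037 genes with 2 or more probe sets past the minimum differed by that much or more. The dimmer probe set has a name ending in _s_at, which marks sets that can match transcripts of more than 1 gene, and its signal in the deficient pool lay just under the minimum. Its closest measured relative, Serpinb1b, was at 2.37 and 2.53, far below the minimum in both pools.

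Serpinb9, the inhibitor of granzyme B, was higher in the miR-125a-deficient pool on both of its probe sets, at less than 2-fold. The brighter went from 1017 in the wild-type to 1685 in the deficient pool, and the dimmer from 231 to 298. The log2 ratios were 0.72 (probe-set SD 0.20), or 1.65-fold, and 0.35 (probe-set SD 0.32), or 1.27-fold. The brighter lay inside the central 95% of all probe sets past the minimum, which ran from -0.84 to 0.74, and 2.72% of them had a higher ratio. Of the member probe sets past the minimum it was the 1 at least 1.5-fold higher, a size that 4.73% of probe sets reached upward and 7.15% downward. The dimmer lay only 1.08 probe-set SDs from 0.

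Serpinb6b and Serpinb6a are close relatives with opposite and nearly equal differences. Serpinb6b, an inhibitor of mouse granzyme A, was at 2046 in wild-type and 2797 in deficient cells, a log2 ratio of 0.45 (probe-set SD 0.19). Serpinb6a, which inhibits cathepsin G and trypsin-like proteases, was at 3767 and 2757, a log2 ratio of -0.45 (probe-set SD 0.19). Each gene has 1 probe set, so no second measurement on the array bears on either ratio. Each difference was 2.39 probe-set SDs from 0 and was 1.36-fold in size, and the 2 ratios lay 0.90 apart. Among all probe sets past the minimum, 8.71% had a higher ratio than Serpinb6b, and 2317 of the 19248 a lower ratio than Serpinb6a, so neither stands outside the bulk of the array.

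**Figure D2:**
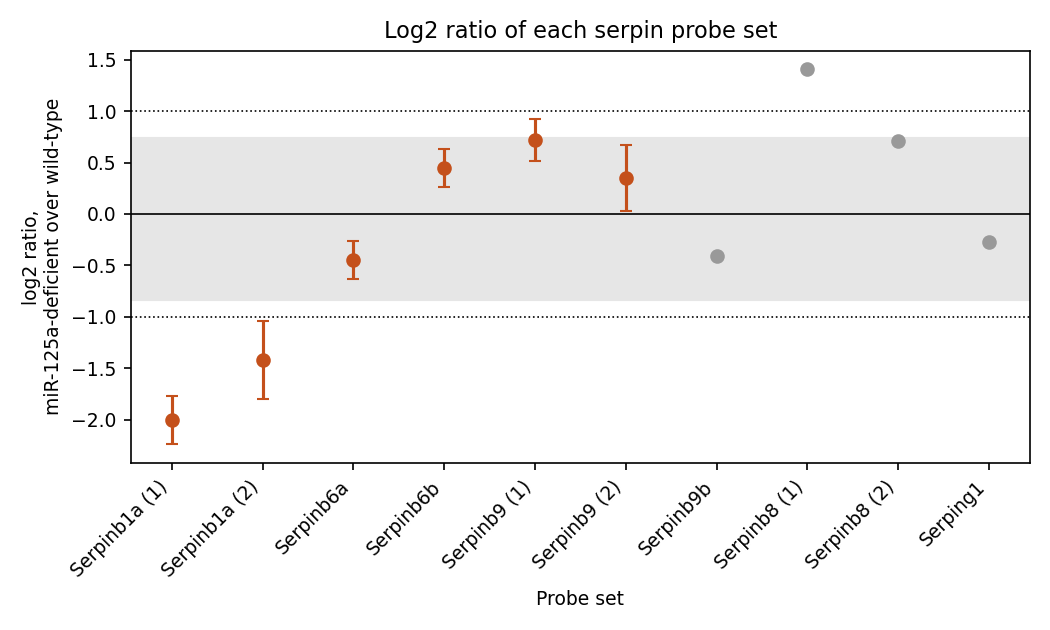
Log2 ratio of the miR-125a-deficient over the wild-type signal for each serpin probe set, with orange points past the signal minimum and grey points below it. Error bars are 1 probe-set SD (orange points only), the grey band is the central 95% of all probe sets past the minimum (-0.84 to 0.74), and dotted lines mark 2-fold; of the orange points, the 2 of Serpinb1a lie outside the band.

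The members below the minimum give little more than their levels. Serpinb9b, which inhibits granzyme M in the mouse, was at 71.2 in wild-type and 49.4 in deficient cells, with a mean of 60.3 just under the minimum. Its log2 ratio was -0.41. Serpinb8, an inhibitor of the proprotein convertase furin, was at 3.41 and 35.9 on its brighter probe set and at 3.10 and 15.4 on its dimmer. Both lay below the pseudocount in the wild-type pool and below the minimum in the deficient pool, so no fold is given. Without the minimum, 4.27% of probe sets reached 2-fold upward and 3.40% downward, against 1.04% and 1.39% with it. Serping1, the secreted inhibitor of the complement proteases C1r and C1s, was at 41.2 and 31.2, which places it below the minimum in both pools.

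Serpinb1a, Serpinb6b, Serpinb9, Serpinb9b and Serpinb6a belong to the clade B cluster of chromosome 13, which in the RefSeq gene table holds 17 serpin genes, 16 of them protein-coding. Probe sets named 11 of the 17, and 5 passed the minimum. Along the chromosome Serpinb1a comes first and Serpinb6a last. Serpinb6b, Serpinb9 and Serpinb9b follow each other among the serpins, the first 2 of them higher in the deficient pool and Serpinb9b, below the minimum, lower. Serpinb6e, the non-member that passed, was at 193 in wild-type and 139 in deficient cells, a log2 ratio of -0.43 (probe-set SD 0.38), near that of Serpinb6a. Its probe set name ends in _x_at, a sign that its probes can match related transcripts.

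The nearest protein-coding genes outside the cluster, 3 on each side, gave ratios near 0 where they were measured. Wrnip1, Gmds and Mylk4 stand before Serpinb1a, with log2 ratios of 0.08 and -0.01 for the first 2 and signals of 1.25 and 3.82 for Mylk4. Beyond Serpinb6a, Nqo2 had a log2 ratio of -0.22 (probe-set SD 0.38) and Bphl 0.01. The differences at the serpins therefore changed sign within the cluster, and the measured flanking genes past the minimum stayed between -0.22 and 0.08.

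**Figure D3:**
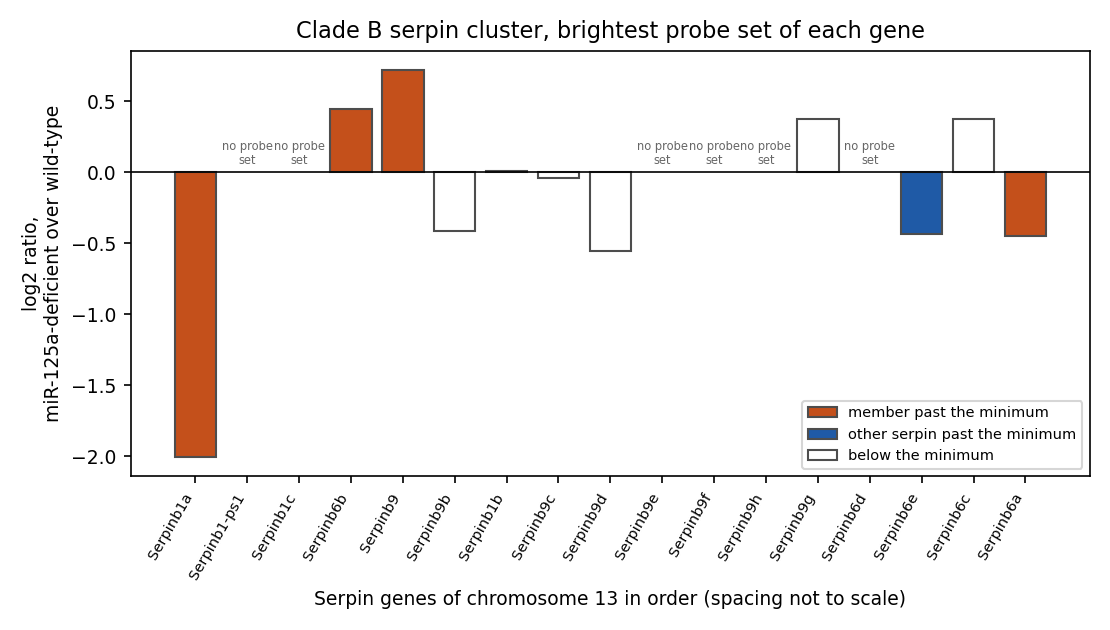
Log2 ratio of the miR-125a-deficient over the wild-type signal for the 17 serpin genes of chromosome 13, in gene order and not to scale, each by its brightest probe set. Orange bars are members and the blue bar a non-member past the signal minimum, white bars lie below it; Serpinb1a at the left end is at -2.01, Serpinb6b and Serpinb9 at 0.45 and 0.72, and Serpinb6a at the right end at -0.45.

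Of the 3 serpins with a granzyme named here as a target, Serpinb9 and Serpinb6b can be set beside it as ratios past the minimum, and 0 of these ratios reached 2-fold. Gzmb, which encodes granzyme B, was at 30999 in wild-type and 34356 in deficient cells, a log2 ratio of 0.15 (probe-set SD 0.16). The Serpinb9 ratio of its brighter probe set exceeded it by 0.57, with a combined probe-set SD of 0.26, but that of its dimmer probe set by 0.20, with a combined SD of 0.36. Gzma, which encodes granzyme A, was at 29096 and 26704, a log2 ratio of -0.12 (probe-set SD 0.16), and the Serpinb6b ratio exceeded it by 0.57 with a combined SD of 0.25. The brighter Serpinb9 probe set and Serpinb6b thus lay between 2 and 3 combined SDs from their granzymes. The dimmer Serpinb9 probe set lay within 1 combined SD of Gzmb. The serpin ratios are among the values the genes were chosen by, so these distances describe the 2 arrays and are not a test.

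Other known targets could not be set beside their inhibitors as ratios. Elane, Prtn3 and Ctsg, which encode the neutrophil proteases that Serpinb1a inhibits, were below the minimum in both pools, at 32.4, 30.1 and 33.7 in wild-type and 22.1, 23.8 and 29.2 in the deficient pool. Gzmm, the target of Serpinb9b, was at 4.46 and 67.6, with a mean below the minimum. Furin, the target of Serpinb8, was at 2054 and 1839, a log2 ratio of -0.16 (probe-set SD 0.21).

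In the wider granzyme list, 11 of 13 measured genes passed the minimum, 5 were lower by 2-fold or more in the deficient pool and 0 higher by as much, beside 1.20% lower, 1.08% higher and 2.28% either of 10590 genes. The 5 were Gzmd, Gzme, Gzmf, Gzmg and Prf1, the pore-forming perforin. The probe sets used for Gzmd and Gzme end in _x_at and can match related transcripts. Gzmd had a second one without that mark, at -2.35, and Gzme had no other. Their ratios ran from -2.20 for Gzmg to -1.36 for Gzmf, a range that holds both Serpinb1a probe sets. Prf1 was at -1.88. Its other probe set was at -0.78, from 81.4 in wild-type to 40.4 in deficient cells, with a mean below the minimum. Ctsc, the protease that activates granzymes, had a ratio of -0.35 (probe-set SD 0.16), and Srgn, the proteoglycan that packs them, the highest ratio at 0.26.

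The lysosomal cathepsins showed 0 of 11 genes past the minimum at 2-fold, with a median log2 ratio of 0.02. By the brightest probe set of each gene, Ctss, a cysteine protease of antigen processing, had the lowest ratio at -0.57 (probe-set SD 0.16), from 6429 to 4315. Ctsw, a cathepsin of cytotoxic cells, was next at -0.30 (probe-set SD 0.16). Lgmn, the asparaginyl endopeptidase legumain, had the highest at 0.53 (probe-set SD 0.38), and Ctsl the next at 0.33. The mean over the Ctsl probe sets was -0.07, but it includes a set below the minimum, at 38.4 in wild-type and 23.5 in deficient cells. Ctse was at 0.25 on its brighter probe set. On its other set, also past the minimum, it went from 328 in wild-type to 185 in deficient cells. That ratio of -0.78 (probe-set SD 0.32) is lower than the Ctss ratio.

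Of the other protease inhibitors, each by its brightest probe set, 0 of 12 past the minimum reached 2-fold. Their median log2 ratio was -0.14. Spint1, a membrane-bound inhibitor of trypsin-like proteases, was at 85.8 in wild-type and 43.9 in deficient cells, the lowest ratio at -0.76. It was past the minimum in the wild-type pool alone. Timp2, an inhibitor of matrix metalloproteases, was at 4676 and 2784 with a ratio of -0.74 (probe-set SD 0.19). Cst7, the lysosomal cystatin of cytotoxic cells, was highest at 0.29 (probe-set SD 0.21), followed by Timp3 at 0.28. By these probe sets the Serpinb1a difference was larger than that of any of the 12 inhibitors. Timp2 did reach 2-fold on its 2 other probe sets past the minimum, at 581 and 269 with a ratio of -1.06 and at 299 and 133 with -1.07.

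The 33 other serpin genes measured were mostly below the minimum, as 5 passed it and 0 of those reached 2-fold. Serpinf1, the secreted pigment epithelium-derived factor, was at 943 in wild-type and 1161 in deficient cells on its brighter probe set, with log2 ratios of 0.30 and -0.19 on its 2 probe sets. Serpina1c, an alpha-1 antitrypsin gene, had a ratio of 0.84, at 45.7 and 94.4, and Serpini1, neuroserpin, one of 0.55. Serpina1c was past the minimum in the deficient pool alone. Serpinc1, antithrombin, had a ratio of 0.44, at 74.3 and 107. The median of the 5 was 0.44.

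Proteases that the secreted serpins act on were few above the minimum. Of the complement and contact proteases, C1s1 was the 1 gene of 7 that passed, at 82.5 in wild-type and 143 in the deficient pool, for a log2 ratio of 0.69 (probe-set SD 0.38). Of 8 genes of the plasminogen and thrombin system, 3 passed. Plaur, the urokinase receptor, had a ratio of 0.73 (probe-set SD 0.32), F2r, a thrombin receptor, 0.05, and St14, the membrane protease matriptase, -0.999 (probe-set SD 0.32), from 411 to 197, just short of 2-fold. The other F2r probe set went from 3846 to 1640, a ratio of -1.22 (probe-set SD 0.19) or 2.33-fold lower, so the F2r probe sets disagree on a 2-fold difference, and their mean was -0.58.

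**Figure D4:**
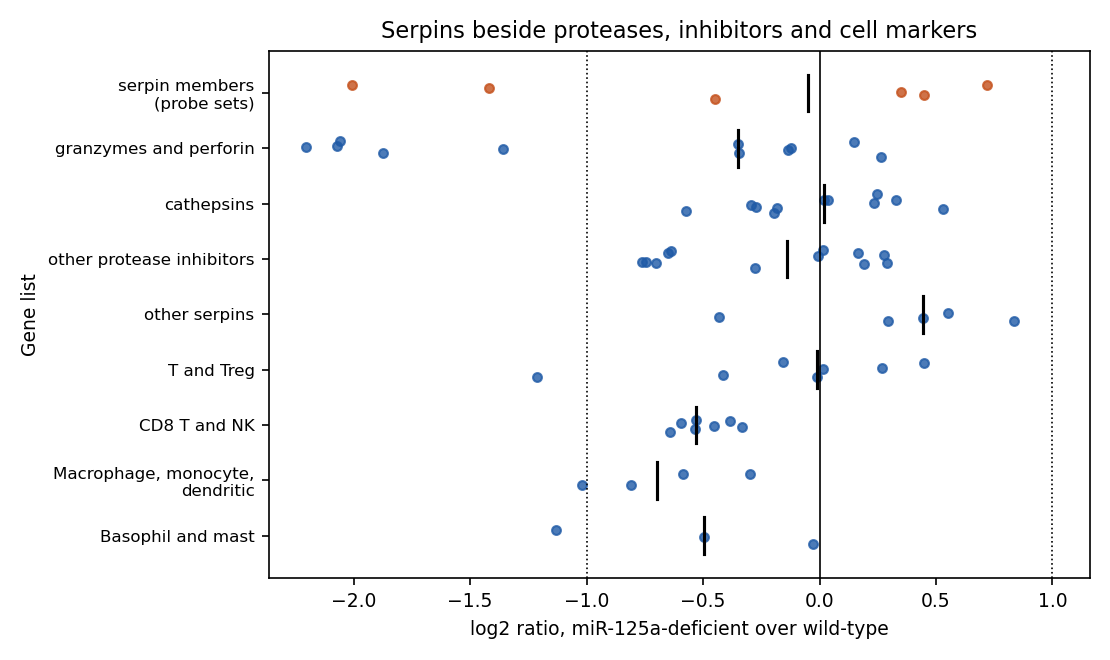
Log2 ratio of the miR-125a-deficient over the wild-type signal for the 6 member probe sets (orange) and for genes past the signal minimum in 8 lists (blue, brightest probe set per gene), with vertical bars at each median and dotted lines at 2-fold. The Serpinb1a points lie with the 5 lower genes of the granzyme list, left of the markers of every cell type shown.

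The labelled cell type was checked against its markers, and markers of other cells were measured beside the serpins. Cd3d was at 19986 and 19862, Il2ra, which encodes CD25, at 15390 and 18551, Ctla4 at 16623 and 16803, and Cd4 at 715 and 641 in wild-type and deficient cells. Foxp3, the lineage-defining factor of Treg cells, was the 1 marker of this list at 2-fold, 2.32-fold lower in deficient cells at 694 against 1631, and Ikzf2 had the highest ratio of this list at 0.45. Cd3e was at -0.41, and all 7 T and Treg markers passed the minimum.

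The CD8 T and NK cell markers, from cells that carry granzymes and their serpins, had 0 of 7 genes past the minimum at 2-fold. All 7 had ratios below 0, beside 49.0% of all genes past the minimum, and 4 of the 7 lay within 2 probe-set SDs of 0. Klrd1, Nkg7 and Klrk1 lay 3.93, 2.76 and 2.52 probe-set SDs below 0. The ratios ran from -0.64 for Klrd1 to -0.33 for Eomes, whose other probe set was at -0.01, with a median of -0.53 and a summed signal of 17798 in wild-type and 12207 in the deficient pool over all 9 measured. The defining chains Cd8a and Cd8b1 were at 435 and 438 in wild-type and 295 and 332 in the deficient pool. Serpinb1a, Prf1, Gzmd, Gzme, Gzmf and Gzmg had lower ratios than each of these 7 markers. The Serpinb6a ratio of -0.45 lay within the range of the markers, and the Serpinb9 and Serpinb6b ratios were above 0. The part of these cells in the serpin ratios was not tested.

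Among myeloid cells (macrophages, monocytes and dendritic cells), 4 of 12 measured markers passed and all 4 were below 0, with a median of -0.70. Of these, Itgax, at 79.7 and 47.6, was past the minimum in the wild-type pool alone. Of the 8 under the minimum, 5 were below 0 and 3 above, among them Lyz2 at 30.8 and 61.0 and Tyrobp at 9.12 and 22.8, and the summed signal of all 12 was 806 and 548. Fcer1g, an Fc receptor chain, was lowest at 103 against 226, a log2 ratio of -1.02 that lay under 2-fold, between -0.98 and -0.80, with the 3 other array scalings and with a pseudocount at the median signal. Of 7 basophil and mast cell markers, 3 passed and all 3 were below 0, with a median of -0.49 and a summed signal of 1097 and 726. Kit, a stem cell factor receptor, was 2.19-fold lower at 285 against 643 and made up most of the fall in this sum. Fcer1a was at -0.03, and of the basophil and mast cell markers under the minimum 2 were above 0 and 2 below. The 10 measured neutrophil markers, cells rich in Serpinb1a, had 0 past the minimum and a summed signal of 366 and 217. Of these 8 were lower in the deficient pool, from S100a8 at 69.6 and 8.22 to Ngp at 51.2 and 50.1. The 2 higher were Camp at 8.29 and 23.6 and Cxcr2 at 8.11 and 12.7. S100a8 and S100a9 made up most of the fall in the neutrophil sum. All 10 lay below the minimum, so neither the sum nor these directions show whether neutrophils differed between the pools. No share over all genes below the minimum is given beside them. No marker of these lists was at the lowest deposited value on either array, and their part in the Serpinb1a ratio was not tested.

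Of the B cell list, 2 of 5 measured markers passed, Cd79b at -0.14 and Ighm at -0.95. The mean over all Ighm probe sets was -0.08, but it includes sets below the minimum. The 2 brightest Ighm sets went from 3403 in wild-type to 1754 in deficient cells, at -0.95, and from 2112 to 1273, at -0.72. The dimmer Ighm sets past the minimum were at 0.41 and -0.47. The summed B cell signal was 3672 and 2034, most of it from the brightest Ighm set. Of the B cell markers under the minimum, 2 had ratios above 0 and 1 below. The 3 plasma cell markers past the minimum had a median of -0.16, and Pecam1, the 1 stromal or endothelial marker of 5 that passed, had -0.45.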

How the data were processed

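Total RNA of the 2 pools was labelled from 6 ug per array, per the labels. The authors deposited log2 values of the MAS5 signal; the submitters' processing notes name MAS5, a summary that subtracts mismatch signal and scales each array. Turned back to linear signals, both arrays had a trimmed mean of 500.0 (2% off each end). The lowest deposited log2 value, 0, was held by 552 and 473 probe sets and is a bound. Detection calls and a genome build are not given in the sources used here.

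Genes were named from the platform annotation: 34945 of the 45101 probe sets named 1 gene, and control probe sets were left out. Symbols were matched to the RefSeq table of GRCm38.p6 for gene order only. The pseudocount of 16.3 is the 25th percentile of all signals, and the minimum of 62.3 the median of mean signals. The probe-set SD comes from 5037 genes in 10 groups by signal and fell from 0.38 to 0.16 with signal; it was not given below the minimum. A gene outside the members was represented by its brightest probe set. Besides all members and Gzmb, Prf1, Foxp3, Il2ra, Cd4 and Ctla4, the genes named were those at 2-fold and up to 2 highest and 2 lowest of each list; defining markers, known protease targets, genes beside the cluster and Srgn, Ctsc and Serpinb1b were added for context. Members and lists were chosen with earlier results of these data known. The ratio and scaling steps were tested on simulated data (Python 3.11.15, numpy 2.4.6, pandas 2.3.3, statsmodels 0.14.6). The motifs printed were kept from a longer set after matches in the serpin promoters had been seen. Alternatives covered pseudocounts, array scalings, filters, folds, means over probe sets and probe sets that can match several transcripts.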

Additional observations from a re-analysis of the deposited data

How the results depend on the processing

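Each member ratio past the minimum kept its sign in every alternative run. Serpinb1a stayed at least 2-fold lower on both probe sets with 3 other array scalings and both other pseudocounts, from -2.04 to -1.71 on the brighter, the latter as the mean over its probe sets, and from -1.63 to -1.04 on the dimmer, the latter with a pseudocount at the median signal. The ranges were 0.53 to 0.76 and 0.30 to 0.42 for the Serpinb9 probe sets, 0.44 to 0.49 for Serpinb6b and -0.46 to -0.41 for Serpinb6a. The count of 2 lower member probe sets became 1 with the minimum at the 75th percentile of mean signal and with a fold of 3. It also became 1 after leaving out _s_at and _x_at probe sets. In each case the dimmer Serpinb1a set drops out. Shares over all probe sets were not taken at these settings. The count of 0 higher became 1 with no filter, through the brighter Serpinb8 set, and 1 with a fold of 1.5, through the brighter Serpinb9 set. Over the protease, inhibitor and marker lists, 8 of 70 genes past the minimum were lower and 0 higher, beside 1.20% and 1.08% of all genes past it. With no filter 14 of 151 were lower and 7 higher, beside 3.40% and 4.27% of probe sets naming 1 gene. With a fold of 1.5, 19 of 70 were lower and 3 higher, beside 7.15% and 4.73% of probe sets past the minimum. With a fold of 3, 4 of 70 were lower, and with the minimum at the 75th percentile 4 of 39. With a pseudocount of 1, 9 of 70 were lower, St14 among them at -1.05, and 1 was higher, Serpina1c at 1.03. Leaving out genes whose brightest probe set ends in _s_at or _x_at, 6 of 60 were lower, since Gzmd and Gzme drop out. For this setting, a fold of 3, the 75th percentile and a pseudocount of 1, no share over all genes was taken. The list counts at those settings therefore cannot be set against the whole array. Of 443 alternative values of list genes and medians, 10 moved by more than 1 probe-set SD and 0 called genes changed sign. Some genes that were not called did change sign with the mean over their probe sets. Among them, Ctsa went from -0.27 to 0.38, Ctse from 0.25 to -0.26, Ctsl from 0.33 to -0.07 and F2r from 0.05 to -0.58. For Ctsa and Ctsl that mean includes a probe set below the minimum. No paired analysis was possible because each genotype has 1 pooled sample. Low signal and the single array per genotype limit every ratio: variation between mice cannot be seen, and below the minimum MAS5 values are close to the noise of mismatch subtraction.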
